A study of Mus musculus with 4 samples.

Results

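The genes described here are the 8 members of the SOCS and CISH family, Cish and Socs1 to Socs7, taken by name from a table of 52550 mouse genes. All 8 were found in the table. RNA-seq was run on macrophages derived from bone marrow (BMDMs), which were grown for 7 days with the macrophage growth factor M-CSF at 20 ng/mL. There were 4 groups of 1 library each. They were OGT knockout at 24 h, OGT knockout at 0 h, WT at 24 h and WT at 0 h, and the 24 h cells were polarised with IL-4 at 20 ng/mL. OGT is the enzyme that places O-linked N-acetylglucosamine on intracellular proteins. The sources used here do not give how Ogt was deleted, in which cells, or the number, age and strain of the mice. The 0 h libraries carry an IL-4 treatment tag like the others and were taken as cells before IL-4. No untreated culture of 24 h is labelled, so IL-4 and time in culture cannot be told apart. With 1 library per group there is no spread between cultures to set a difference against, and no p-value is given.

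SOCS proteins and CIS, the product of Cish, are feedback inhibitors of cytokine signalling. Cytokine receptors activate JAK kinases, which phosphorylate STAT transcription factors. STATs then switch on genes that include several of the family, whose proteins turn back on the receptor. Each member has an SH2 domain that binds phosphotyrosine and a SOCS box that recruits a ubiquitin ligase built on elongins B and C and a cullin. SOCS1 and SOCS3 also carry a short region that blocks JAK catalysis. In macrophages SOCS1 restrains interferon and IL-4 receptor signalling, and SOCS3 restrains signals through gp130, the shared IL-6 receptor chain.

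Promoter sequences are shown because STATs and interferon regulatory factors, which act in these pathways, bind known short motifs. RefSeq windows of 300 bases (GRCm38.p6), holding 250 bases before and 50 after the annotated start, were matched for Cish, Socs1, Socs3 and Socs4. Those of Socs2, Socs5, Socs6 and Socs7 were not analysed here. Both strands were searched for TTCNNNGAA, the general STAT motif, for TTCNNNNGAA, the spacing that STAT6 also binds, and for GAAANNGAAA, a form of the interferon-stimulated element. Capitals mark the matches. Cish held 2 matches of TTCNNNGAA just past its RefSeq start. They are shown within 30 bases at chr9:107296654-107296683, + strand, which lie inside the first exon of the longer GENCODE transcript Cish-201:
Cish: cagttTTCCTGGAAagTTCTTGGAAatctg
The 250 bases before the start of Socs1 lie at chr16:10785537-10785786, − strand. They held 2 overlapping matches of GAAANNGAAA, the first beginning 83 bases before the start:
Socs1: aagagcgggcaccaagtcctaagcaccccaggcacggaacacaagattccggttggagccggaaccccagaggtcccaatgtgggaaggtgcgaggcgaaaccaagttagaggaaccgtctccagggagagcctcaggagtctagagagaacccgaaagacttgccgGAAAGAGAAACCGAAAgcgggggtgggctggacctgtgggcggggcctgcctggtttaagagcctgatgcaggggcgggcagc
The corresponding bases of Socs3 lie at chr11:117969367-117969616, − strand, inside the GENCODE gene span of 117966079 to 117970047. They held 1 match of TTCNNNGAA, 154 bases before the start:
Socs3: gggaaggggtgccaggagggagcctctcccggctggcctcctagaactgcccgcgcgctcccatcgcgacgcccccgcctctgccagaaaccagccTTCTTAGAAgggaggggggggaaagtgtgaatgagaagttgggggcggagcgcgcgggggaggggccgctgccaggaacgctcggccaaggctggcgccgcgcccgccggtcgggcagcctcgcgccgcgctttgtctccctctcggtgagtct
Those of Socs4 lie at chr14:47276670-47276919, + strand, and the window held no match of these letters:
Socs4: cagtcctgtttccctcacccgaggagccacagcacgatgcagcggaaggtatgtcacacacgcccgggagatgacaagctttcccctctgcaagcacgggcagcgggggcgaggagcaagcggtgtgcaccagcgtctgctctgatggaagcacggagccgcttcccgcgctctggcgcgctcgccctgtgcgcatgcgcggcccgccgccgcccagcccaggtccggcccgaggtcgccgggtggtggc
Over 32851 promoter windows of this length, 8.30% held TTCNNNGAA, 6.95% held TTCNNNNGAA and 3.44% held GAAANNGAAA. None of the 4 windows held TTCNNNNGAA. A match is a description of the letters only.

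Values are FPKM, fragments scaled to transcript length and library size, and levels of different genes are set side by side on that scale. The values of Cish, Socs2, Socs3, Socs6 and Socs7 carry more than 6 decimals, as do 74.1% of genes at 1 FPKM or more in any library, and those of the other 3 members do not. Whether several entries were combined for such genes was not tested, so ranks, shares and ratios between members are less certain than differences within a member. Differences are log2 ratios of FPKM + 1. A comparison kept genes with 1 FPKM or more in any of its libraries. A kept gene was counted as higher or lower if it differed by 2-fold or more on that scale. The table's totals lay between 338704 and 353093 FPKM. From genes with 1 exon, a transcript of 2000 bases at 1 FPKM was estimated to hold 40.8 to 44.8 fragments. Ogt, the targeted gene, stood at 14.5 FPKM in knockout and 29.8 FPKM in WT at 24 h, and at 14.2 FPKM in knockout and 27.4 FPKM in WT at 0 h. The knockout libraries thus held 48.5% of the WT transcript level at 24 h and 51.8% at 0 h. These values do not show how much OGT protein was lost. All 7 macrophage markers were above 1 FPKM in every library, and summed to 6337 FPKM in knockout at 24 h, 15419 in knockout at 0 h, 6314 in WT at 24 h and 18475 in WT at 0 h. Lyz2 made up most of these sums, at 4148 FPKM in knockout at 24 h, 12062 in knockout at 0 h, 4246 in WT at 24 h and 15193 in WT at 0 h. Adgre1, Fcgr1, Mertk and Lyz2 were at least 2-fold lower at 24 h in both genotypes. Itgam was lower by −1.78 in the knockout and −0.88 in WT. Csf1r (−0.28 in knockout and −0.32 in WT) and Cd68 (−0.04 and −0.06 in that order) differed little. Between genotypes at 24 h the macrophage markers went both ways. Itgam was at 31.1 FPKM in knockout and 66.7 FPKM in WT (log2 difference −1.07), and Lyz2 differed by −0.03. Fcgr1 was at 55.7 FPKM in knockout and 35.7 FPKM in WT (0.63). Csf1r (0.25), Mertk (0.16) and Adgre1 (0.07) were also higher in the knockout, and Cd68 was at 965.5 FPKM in each. The 6 neutrophil markers summed to 638 FPKM in knockout at 24 h, 2029 in knockout at 0 h, 986 in WT at 24 h and 3191 in WT at 0 h. Of 4 dendritic cell markers only Itgax passed 1 FPKM, and it stood at 353 FPKM in knockout at 24 h, 15.1 in knockout at 0 h, 355 in WT at 24 h and 35.1 in WT at 0 h. The 5 basophil and mast cell markers summed to 0.687 FPKM in knockout and 4.36 FPKM in WT at 24 h, and to 1.18 FPKM in knockout and 6.47 FPKM in WT at 0 h. Fibroblast markers summed to at most 11.9 FPKM, B cell markers to 13.9 and T cell markers to 1.14. No marker was at 0 in all 4 libraries. These shifts in marker levels accompany the differences below, and their part in them was not tested. In bulk RNA, fewer cells of a type and less RNA per cell cannot be told apart.

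After 24 h of IL-4 the family divided into a strongly higher trio, 1 lower member and members that stayed near their starting level. Cish, Socs1 and Socs2 were higher in both genotypes. Socs3 was 2-fold lower at 24 h in WT, with a value just inside 2-fold in the knockout. Socs6 was higher in the knockout and not in WT. In the knockout response, 4 of 8 members were at least 2-fold higher, where 5.16% of 11577 genes were, and 0 of 8 were 2-fold lower, where 5.99% were. In the WT response, 3 of 8 were higher, where 4.76% of 11687 genes were, and 1 of 8 was lower, where 6.26% were. The median of the family was 1.41 on the log2 scale in the knockout response and 0.17 in the WT response. The medians of all kept genes were 0.03 and 0.02 in the same order of responses. The family's knockout median lies between Socs5 (0.70) and Socs6 (2.12), so its height draws on Socs6. On the FPKM + 1 scale Cish, Socs1 and Socs2 each had a smaller difference in the knockout response than in the WT response.

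**Figure D1:**
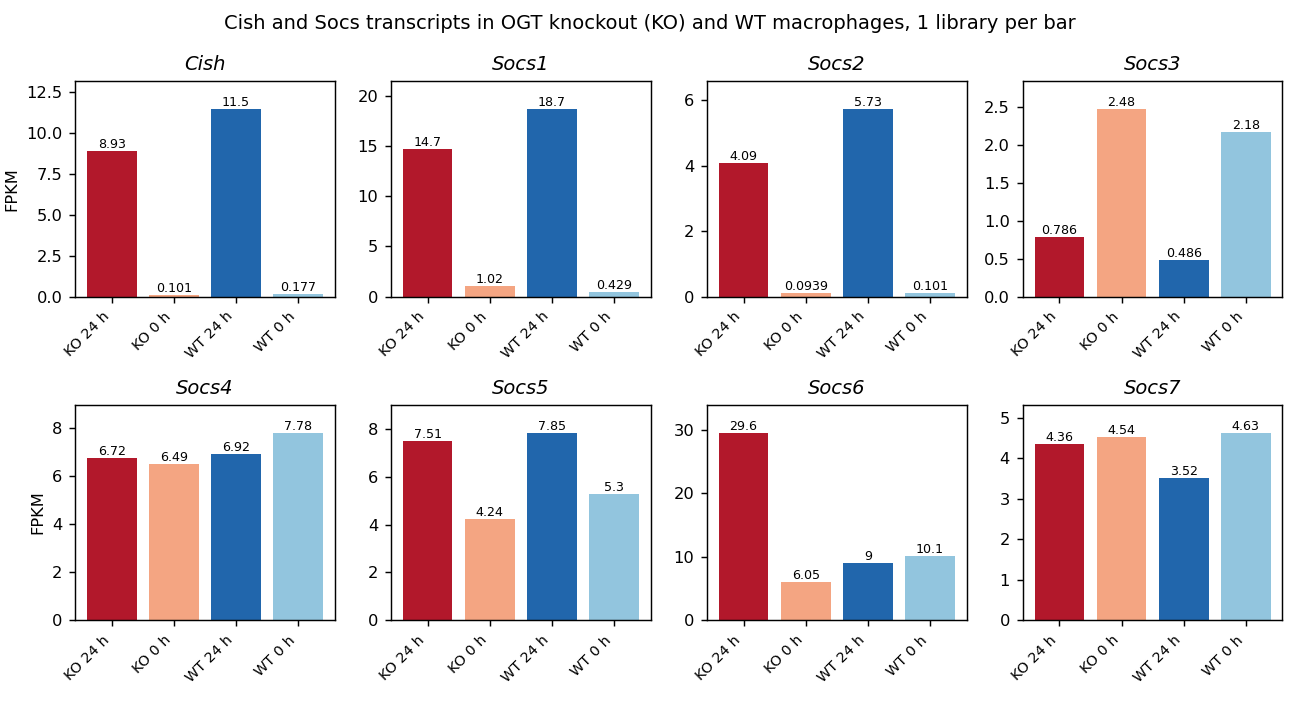
Level of each family member in FPKM, with a separate axis per gene starting at 0 and 1 bar per library, from OGT knockout at 24 h to WT at 0 h. Cish, Socs1 and Socs2 are tall at 24 h in both genotypes, Socs3 is tall at 0 h, and Socs6 is tall in the knockout at 24 h alone.

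Cish encodes CIS, a STAT5 target that competes at receptors (chromosome 9, 107296026 to 107302784, + strand, ENSMUSG00000032578). Cish stood at 8.93 FPKM in knockout at 24 h, 0.101 FPKM in knockout at 0 h, 11.5 FPKM in WT at 24 h and 0.177 FPKM in WT at 0 h. Both 24 h libraries were far above both 0 h libraries, which were near 0 for this gene. Its log2 difference was 3.17 in the knockout response (9.02-fold) and 3.41 in the WT response (10.6-fold). Cish ranked 31st from the top of 11577 genes in the knockout and 23rd of 11687 in WT. The 0 h levels amount to about 9.69 fragments in knockout and 18.6 in WT if all lay on the longest transcript, so the size of the ratio rests on few fragments and on the pseudocount. With a pseudocount of 0.1 the responses were 5.49 in knockout and 5.39 in WT, and with 5 they were 1.45 in knockout and 1.67 in WT. Exons of Cish overlap those of Gm17040 and Gm17041 on the opposite strand, which reached at most 0.062 FPKM in any library.

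Socs1 encodes the direct JAK inhibitor of the interferon and IL-4 pathways (chromosome 16, 10782240 to 10785536, − strand, ENSMUSG00000038037). Socs1 stood at 14.7 FPKM in knockout at 24 h, 1.02 FPKM in knockout at 0 h, 18.7 FPKM in WT at 24 h and 0.429 FPKM in WT at 0 h. The 24 h libraries were again the high ones, and the order of the genotypes was not the same at the 2 times. The 0 h order rests on low levels, about 60.5 fragments in knockout and 27.9 in WT on the longest transcript. The log2 difference was 2.96 in the knockout response (7.78-fold) and 3.79 in the WT response (13.8-fold). The sizes depend on the pseudocount, with 3.73 in knockout and 5.15 in WT at 0.1, and 1.71 in knockout and 2.13 in WT at 5. In WT it ranked 16th from the top among all kept genes, the highest rank of any member, and in the knockout 42nd. Socs1 was the most abundant member in WT at 24 h and only sixth of 8 in WT at 0 h.

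Socs2 encodes a regulator best known for restraining growth hormone signalling (chromosome 10, 95385362 to 95417180, − strand, ENSMUSG00000020027). Socs2 stood at 4.09 FPKM in knockout at 24 h, 0.0939 FPKM in knockout at 0 h, 5.73 FPKM in WT at 24 h and 0.101 FPKM in WT at 0 h. It followed Cish in shape at a lower level, with the lowest 0 h values of the family in both genotypes. The log2 difference was 2.22 in the knockout response (4.66-fold) and 2.61 in the WT response (6.12-fold). With a pseudocount of 5 the knockout value came to 0.84, under 2-fold, and the WT value to 1.07, while a pseudocount of 0.1 gave 4.43 in knockout and 4.86 in WT. The 0 h levels amount to about 8.13 fragments in knockout and 9.58 in WT on the longest transcript. The receptor gene Ghr, through which growth hormone acts, was at most 0.085 FPKM in any library.

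Socs3 encodes the inhibitor of gp130 and related receptors (chromosome 11, 117966079 to 117970047, − strand, ENSMUSG00000053113). Socs3 stood at 0.786 FPKM in knockout at 24 h, 2.48 FPKM in knockout at 0 h, 0.486 FPKM in WT at 24 h and 2.18 FPKM in WT at 0 h. All 4 levels were low, and both 24 h libraries were below both 0 h libraries. The log2 difference was −0.96 in the knockout response, just inside 2-fold, and −1.10 in the WT response (2.14-fold lower). With a pseudocount of 5 the WT value came to −0.39, and with a pseudocount of 0.1 the knockout value came to −1.54. Socs1 was thus 18.7 times as abundant as Socs3 in knockout at 24 h and 0.411 times at 0 h, and 38.6 times in WT at 24 h and 0.197 times at 0 h. Neutrophil markers were also lower at 24 h, as given above, and their part in the Socs3 difference was not tested.

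Socs4 and Socs5 encode a closely related pair known as regulators of the EGF receptor. Socs4 (chromosome 14, 47276931 to 47296102, + strand, ENSMUSG00000048379) stood at 6.72 FPKM in knockout at 24 h, 6.49 FPKM in knockout at 0 h, 6.92 FPKM in WT at 24 h and 7.78 FPKM in WT at 0 h. Its log2 difference was 0.04 in the knockout response and −0.15 in the WT response, so the level differed little at any time or genotype. Socs5 (chromosome 17, 87107679 to 87137839, + strand, ENSMUSG00000037104) stood at 7.51 FPKM in knockout at 24 h, 4.24 FPKM in knockout at 0 h, 7.85 FPKM in WT at 24 h and 5.30 FPKM in WT at 0 h. Both 24 h values of Socs5 were above both 0 h values, with log2 differences of 0.70 in the knockout response and 0.49 in the WT response, inside 2-fold. Egfr itself was at most 0.144 FPKM in any library.

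Socs6 and Socs7 encode another related pair, known to bind the insulin receptor pathway. SOCS6 also binds the receptor tyrosine kinase KIT. Socs7 (chromosome 11, 97362551 to 97398542, + strand, ENSMUSG00000038485) stood at 4.36 FPKM in knockout at 24 h, 4.54 FPKM in knockout at 0 h, 3.52 FPKM in WT at 24 h and 4.63 FPKM in WT at 0 h. The WT library at 24 h was the lowest, with a log2 difference of −0.32 in the WT response and −0.05 in the knockout response. Socs6 (chromosome 18, 88665224 to 88927481, − strand, ENSMUSG00000056153) stood at 29.6 FPKM in knockout at 24 h, 6.05 FPKM in knockout at 0 h, 9.004 FPKM in WT at 24 h and 10.1 FPKM in WT at 0 h. The knockout at 24 h stood apart as the highest value of any member in any library, and the knockout at 0 h was the lowest of the 4. The log2 difference was 2.12 in the knockout response (4.33-fold) and −0.16 in the WT response.

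**Figure D2:**
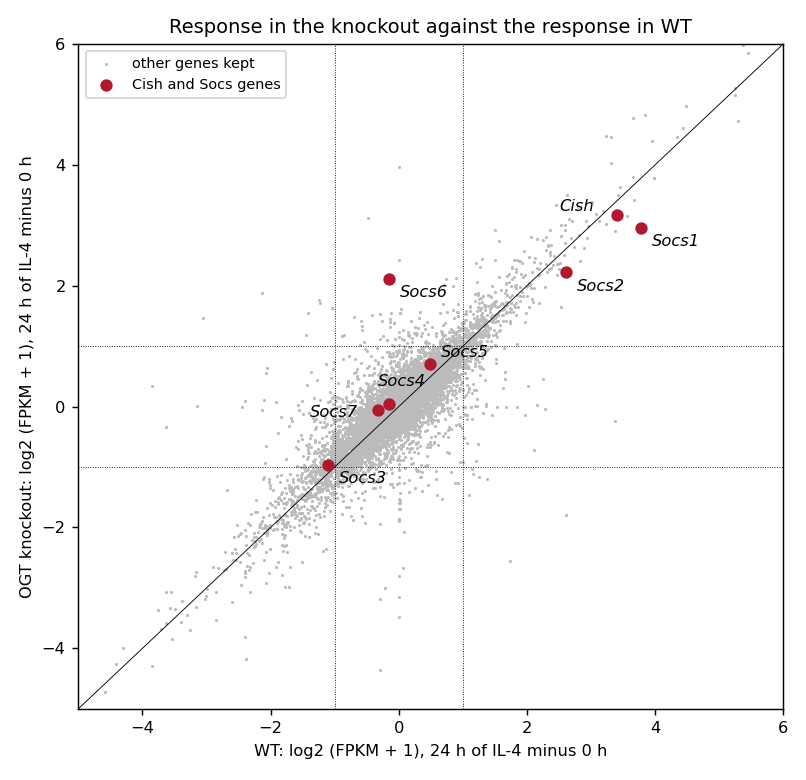
Log2 difference of FPKM + 1 between 24 h of IL-4 and 0 h in the OGT knockout (vertical) against WT (horizontal) for 12000 kept genes, with the 8 members in red, dotted lines at 2-fold and a diagonal of equal response. Cish and Socs2 lie at the upper right near the diagonal, Socs1 lies below it at 2.96 in the knockout and 3.79 in WT, and Socs6 lies well above it at 2.12 in the knockout and −0.16 in WT. The axes run from −5 to 6 and leave out 7 genes.

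The genotypes were then compared at each time, to ask which members differed in cells labelled OGT knockout. At 24 h of IL-4 Socs6 was the member past 2-fold, higher in the knockout. That is 1 of the 7 members kept, where 0.832% of 11302 genes were 2-fold higher, and 0 of the 7 was lower, where 0.619% were. Socs6 reached 29.6 FPKM in the knockout against 9.004 FPKM in WT (log2 difference 1.61, 3.05-fold), which ranked 24th from the top. The IL-4 response of the knockout and this comparison share the knockout 24 h library. The trio that was higher at 24 h was modestly lower in the knockout, inside 2-fold, where 6625 of 11302 genes were lower by any amount. From the bottom, Cish ranked 1238th, Socs1 1261st and Socs2 795th. Cish in the knockout was at 77.8% of the WT level (−0.33), Socs1 at 78.6% (−0.33) and Socs2 at 71.4% (−0.40). The differences of Socs4 (−0.04), Socs5 (−0.06) and Socs7 (0.25) were smaller, and those of Socs4 and Socs5 changed sign when libraries were rescaled to a median ratio. Socs3 was under 1 FPKM in both 24 h libraries and was not kept.

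At 0 h, 0 of the 6 members kept passed 2-fold in either direction, where 0.88% of 11479 genes were higher in the knockout and 0.871% were lower. Socs6 was at 6.05 FPKM in the knockout against 10.1 FPKM in WT (−0.66). Socs1 was at 1.02 FPKM in the knockout against 0.429 FPKM in WT (0.50), the order opposite to that at 24 h. It was kept only through its knockout value, just past 1 FPKM. Socs5 (−0.27), Socs4 (−0.23) and Socs3 (0.13) differed less. Socs7 differed by −0.02, and this sign changed on rescaling to a median ratio. Cish and Socs2 were under 1 FPKM in both 0 h libraries and were not kept.

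**Figure D3:**
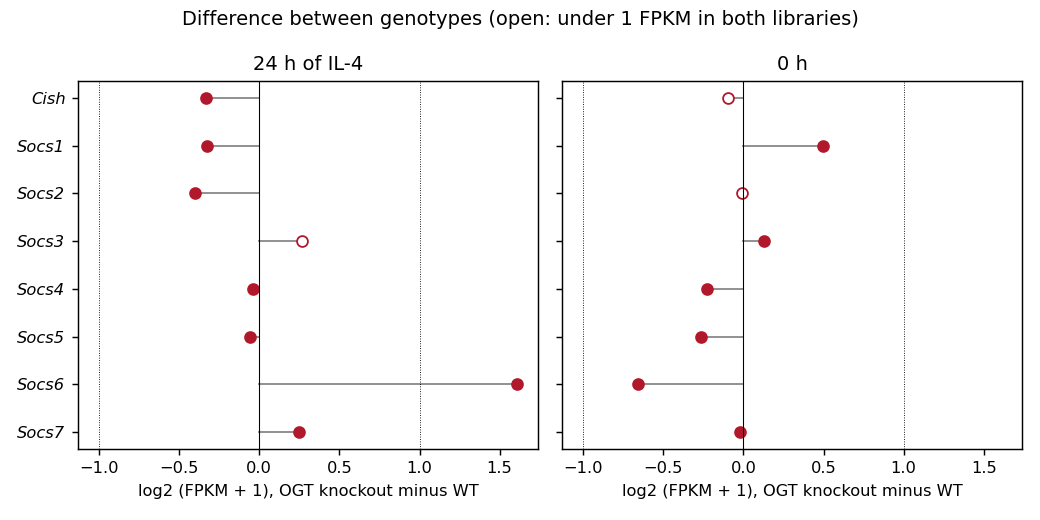
Log2 difference of FPKM + 1, OGT knockout minus WT, for each member at 24 h of IL-4 (left) and at 0 h (right), with dotted lines at 2-fold and open points for members under 1 FPKM in both libraries. Socs6 is at 1.61 at 24 h and at −0.66 at 0 h, and no other member passes 2-fold.

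The knockout response minus the WT response was 2.27 for Socs6, 19th from the top of 12000 genes. It was the 1 member of 8 past 2-fold upward, where 1.27% of genes were, and 0 of 8 were past it downward, where 1.16% were. Socs1 had the most negative value, −0.83, followed by Socs2 (−0.39) and Cish (−0.23). With a pseudocount of 0.1 the Socs1 value came to −1.43, past 2-fold, and that of Cish turned to 0.10, so the direction of Cish was not kept. Genes at least 2-fold above each of the other 3 libraries in the knockout at 24 h numbered 22 (0.183% of 12000), and Socs6 was among them. The corresponding counts were 43 for knockout at 0 h, 15 for WT at 24 h and 25 for WT at 0 h. A replicate culture of the knockout at 24 h was not analysed here, so the height of Socs6 rests on 1 library.

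The makeup of the family's transcript pool differed between the libraries. The 8 members summed to 76.7 FPKM in knockout at 24 h, 25.02 FPKM in knockout at 0 h, 63.7 FPKM in WT at 24 h and 30.7 FPKM in WT at 0 h. Cish, Socs1 and Socs2 together made up 36.2% of it in knockout at 24 h, 4.85% in knockout at 0 h, 56.4% in WT at 24 h and 2.30% in WT at 0 h. Socs6 made up 38.5%, 24.2%, 14.1% and 33.0% in the same order of libraries. Without Socs6 the sum was 47.1 FPKM in knockout and 54.7 FPKM in WT at 24 h, so the order of the genotypes at 24 h turned on that gene. Socs6 was the most abundant member in the knockout 24 h library, Socs4 in the knockout 0 h library, Socs1 in the WT 24 h library and Socs6 again in the WT 0 h library. Neighbours in these orders cannot be separated without replicates.

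The genes nearest in pattern were sought among 6662 protein-coding genes by the distance between centred log2 profiles over the 4 libraries. With 4 points many genes lie close, and all patterns share the same libraries. Nearest to Cish were Scn3a (distance 0.11), which was listed at 0 in both 0 h libraries, Flrt2 (0.19) and Nfil3 (0.29). Nearest to Socs1 were Nfil3 (0.30), Klf4 (0.35) and Scn3a (0.36). Klf4, a transcription factor gene, stood at 27.6 FPKM in knockout at 24 h, 1.67 in knockout at 0 h, 26.2 in WT at 24 h and 1.13 in WT at 0 h. Nearest to Socs2 were Hebp2 (0.13), Prps1 (0.16) and Chchd10 (0.17), and nearest to Socs3 were Camk1d (0.04), Tnfaip8l2 (0.06) and 9930111J21Rik1 (0.06). Socs6 had no close neighbour by this measure, as its nearest genes were Aurkaip1 at 0.70, Cnih1 at 0.74 and Cd24a at 0.75.

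The signalling chain around the family was described from lists of its parts. None of the 4 JAK kinase genes passed 2-fold in any comparison. The closest was Jak2, at 25.9 FPKM in knockout at 24 h, 12.8 in knockout at 0 h, 31.2 in WT at 24 h and 15.1 in WT at 0 h (log2 response 0.96 in knockout and 1.00 in WT, just inside 2-fold). Of 6 STAT genes described, Stat2 was lower in the knockout response (−1.47, and −0.87 in WT) and Stat4 in the WT response (−1.46, with a value just inside 2-fold in the knockout). The median of these genes was −0.30 in the knockout response and −0.35 in the WT response. Among all kept genes, the shares 2-fold higher and lower were 5.16% and 5.99% in the knockout response, and 4.76% and 6.26% in the WT response. They were 0.832% and 0.619% between genotypes at 24 h, and 0.88% and 0.871% at 0 h. Stat6, which carries the IL-4 signal and was chosen after its values were seen, lay between 50.2 and 52.3 FPKM in all 4 libraries.

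Of 23 kept cytokine receptor genes, 2 were higher and 3 lower in the knockout response, where 5.16% and 5.99% of all kept genes were. In the WT response 2 were higher and 5 lower, where 4.76% and 6.26% were. The medians were −0.20 in both. Il27ra, the IL-27 receptor chain, was higher by 2.66 in knockout and 2.32 in WT, and Il6st, which encodes gp130, by 1.55 in knockout and 1.68 in WT. Il13ra1, which pairs with the IL-4 receptor, was lower (−1.97 in knockout and −2.07 in WT), as was the IL-10 receptor gene Il10ra (−1.17 and −1.35 in the same order). The responses of Il6st and of Socs3, whose product acts on gp130, had opposite signs in both genotypes. Il6ra, the other IL-6 receptor chain, was lower like Socs3 (−0.79 in knockout and −0.82 in WT). Socs3 levels were low in all libraries, and a link among these genes was not tested. Il4ra, chosen after its values were seen, stood at 16.5 FPKM in knockout at 24 h, 32.6 in knockout at 0 h, 15.6 in WT at 24 h and 34.4 in WT at 0 h. Between genotypes 1 receptor gene passed 2-fold, Il10rb at 24 h, with 55.2 FPKM in knockout and 25.7 FPKM in WT (1.07). That is 1 of 21 receptor genes kept, where 0.832% of all kept genes were higher. The WT library at 24 h was the low one for Il10rb, since the 0 h levels were 63.7 in knockout and 64.6 in WT.

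**Figure D4:**
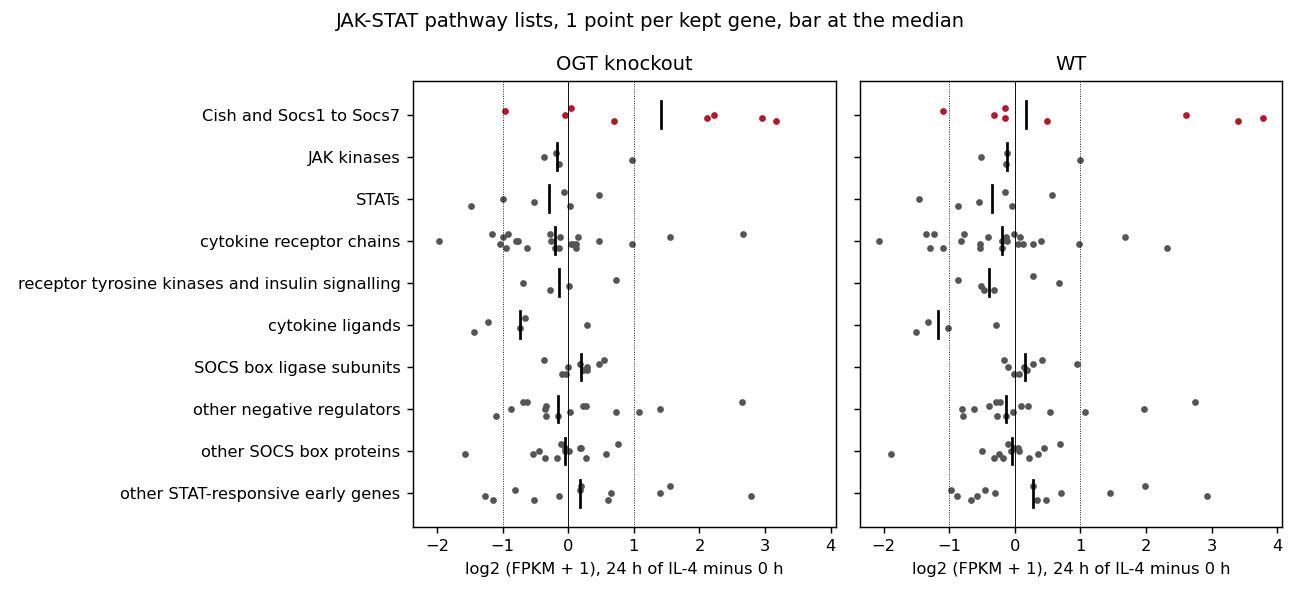
Log2 difference of FPKM + 1 between 24 h of IL-4 and 0 h in the OGT knockout (left) and WT (right), 1 point per kept gene of each list, with a bar at the list's median and dotted lines at 2-fold. The family, in red, spreads from −0.96 to 3.17 in the knockout and from −1.10 to 3.79 in WT. The ligase subunits stay inside 2-fold, as most of all kept genes do.

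Among cytokine genes most of the 17 listed were below 1 FPKM. Of 5 kept in the knockout response, Il10 (−1.44) and Il15 (−1.23) were lower, where 5.99% of all kept genes were. Of 4 kept in the WT response, Il10 (−1.51), Il15 (−1.33) and Osm (−1.01) were lower, where 6.26% were. Il13, Csf2, Csf3 and Il23a were listed at 0 in all libraries. Of 9 genes listed for growth factor receptors and insulin signalling, 4 were kept in the knockout response and 6 in the WT response. Between genotypes 4 were kept at 24 h and 6 at 0 h. No kept gene of this list passed 2-fold in any comparison. Of all kept genes, 5.16% were higher in the knockout response and 4.76% in the WT response. Between genotypes 0.832% were higher and 0.619% lower at 24 h, and 0.88% and 0.871% at 0 h. Insr, the insulin receptor gene, stood at 3.08 FPKM in knockout and 5.98 FPKM in WT at 24 h (−0.77), and Kit was at most 1.07 FPKM.

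The ubiquitin ligase that the SOCS box recruits stayed inside 2-fold for all 10 subunit and cofactor genes in every comparison. Its median was 0.20 in the knockout response and 0.15 in the WT response. Elob, which encodes elongin B, lay between 80.8 and 119 FPKM, and Cul5 between 3.38 and 3.96 FPKM. Of 14 other SOCS box genes kept, Asb2 alone passed 2-fold in either response, and it was lower (−1.57 in knockout and −1.89 in WT). Other negative regulators of the pathway were higher in 3 of 15 cases in both responses, namely the adaptor gene Dok2 (2.64 in knockout and 2.74 in WT), the ubiquitin ligase gene Cblb (1.40 and 1.97 in that order) and the phosphatase gene Ptpn2 (1.07 in each). Usp18, which restrains interferon receptors, was lower in the knockout response (−1.10) and stood at −0.79 in WT. None of the 15 passed 2-fold between genotypes. Over all kept genes, 5.16% were 2-fold higher and 5.99% lower in the knockout response, and 4.76% higher and 6.26% lower in the WT response. Between genotypes 0.832% were higher and 0.619% lower at 24 h, and 0.88% higher and 0.871% lower at 0 h. For the difference of responses the shares were 1.27% and 1.16%. Most genes of any kind thus stayed inside 2-fold, as the ligase genes did.

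Other STAT-responsive early genes differed in both directions. In the knockout response 3 of 12 were higher and 2 lower, where 5.16% and 5.99% of all kept genes were. In the WT response 3 of 13 were higher and 0 lower, where 4.76% and 6.26% were. Myc was higher by 2.78 in knockout and 2.94 in WT, the cyclin gene Ccnd1 by 1.54 in knockout and 1.98 in WT, and the kinase gene Pim3 by 1.40 in knockout and 1.46 in WT. Pim2 (−1.27) and the interferon regulatory factor gene Irf1 (−1.14) were lower in the knockout response and stood at −0.88 and −0.67 in WT. At 24 h the list's median difference between knockout and WT was −0.31, beside a median of −0.05 over all genes. Of its 12 values 9 were negative and 0 past 2-fold, where 6625 of all 11302 kept genes were negative.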

How the data were processed

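The authors' deposited values were FPKM per Ensembl gene, 1 library per group, made with STAR and StringTie on GRCm38 per the submitters' processing notes. The table names no unit, and FPKM was read from the values, since the totals differ. The sources used here do not give strandedness, annotation release or depth. Each library took 1 µg of total RNA, per the labels' protocols. Symbols and positions, counted from 1, came from GENCODE M21, which named 52403 identifiers, and 147 kept their identifier. Genes with a shared symbol were summed, which left 52476 names. Differences, counts and ranks were computed on log2(FPKM + 1) with Python 3.11.15, numpy 2.4.6 and pandas 2.3.3, and checked on simulated data. Fragments were estimated from genes of 1 exon and are not counts. The members, gene lists and comparisons were chosen with earlier results of these data known. All 8 members are named, as are up to 4 listed genes past 2-fold per list and comparison. For each member past 2-fold, the 3 protein-coding genes nearest in pattern that reached 5 FPKM are named. A listed gene is not reported here. Alternatives were pseudocounts of 0.1 and 5, no filter, a filter at 5 FPKM, and rescaled libraries.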

Additional observations from a re-analysis of the deposited data

Results flagged for a closer look

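Differences in opposite directions in the 2 genotypes, or at the 2 times, were found for 4 members. None of these contrasts was tested, since each side is 1 library. The response of Socs6 to IL-4 was 2.12 on the log2 scale in the knockout and −0.16 in WT. Its difference between knockout and WT was 1.61 at 24 h and −0.66 at 0 h, which draws on the same 4 libraries. Socs1 was lower in the knockout at 24 h (−0.33) and higher at 0 h (0.50), where its levels were low, at 1.02 FPKM in knockout and 0.429 FPKM in WT. The response of Socs4 was 0.04 in the knockout and −0.15 in WT. The knockout difference of Socs7 was 0.25 at 24 h and −0.02 at 0 h. The values of Socs4 and Socs7 are inside 2-fold throughout, and the smaller value of each changed sign under a rescaling of the libraries.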

How the results depend on the processing

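The 37 log2 differences of the members were recomputed under 6 alternatives. Of 211 values so obtained, 204 stayed on the same side of 2-fold, 2 came under it, 5 went past it, and 0 differences past 2-fold changed sign. Leaving out the filter, or setting it at 5 FPKM, alters only which genes are kept and not their values. The 37 values without a filter and the 26 with the filter at 5 FPKM, all among the 204, were therefore fixed in advance. Only the pseudocounts and rescalings could move a value. Under all 6 alternatives Cish and Socs1 in both responses, Socs2 in the WT response, and Socs6 in the knockout response, against WT at 24 h and in the difference of responses stayed past 2-fold. With a pseudocount of 0.1 the number of members past 2-fold was 1 between genotypes at 0 h, namely Socs1 (1.08), in place of 0. The difference of responses then had 2, with Socs1 added, and rescaling each library to TPM also gave 2, in place of 1. Socs3 in the knockout response was at −1.36 after that rescaling. Over all genes, a pseudocount of 5 gave 592 genes past 2-fold in the knockout response, 557 in the WT response, 39 between genotypes at 24 h, 43 at 0 h and 72 for the difference of responses, against 1290, 1288, 164, 201 and 291. A pseudocount of 0.1 gave 2031, 1971, 388, 438 and 662 in that order, that rescaling gave 2210, 2151, 559, 641 and 920, and a filter at 5 FPKM gave 964, 979, 93, 106 and 141. The smaller the pseudocount relative to the values, the more low genes pass. No paired analysis was possible because each group holds 1 library. Low levels limit Cish, Socs1 and Socs2 at 0 h and Socs3 throughout.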
